A study of Homo sapiens with 10 samples.

Results

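The genes described here encode the enzymes that write 5-methylcytosine (m5C) in RNA, the proteins that bind it, and the TET enzymes that oxidise it: NSUN2, NSUN4, NSUN6, NOP2, TRDMT1, ALYREF, YBX1, TET1, TET2 and TET3. These 10 genes were chosen by symbol and looked up through their Entrez identifiers in the 3 deposited files. The files hold sites in 6037 genes, 5 of the 10 among them, and the other 5 had no site in any file. The question was whether the transcripts of the m5C machinery themselves carried m5C sites in 2 breast cell lines, and whether the lines differed. The lines were MDA-468, a human breast cancer line, and MCF-10A, a human mammary epithelial line that does not form tumours. Each line had 2 libraries of fragmented polyadenylated RNA precipitated with an antibody against 5-methylcytosine (MeRIP) and 2 of input RNA, and MCF-10A had 2 further technical replicates of its MeRIP. No treatment was given to either line. Each line is a single established culture line, and the labels describe the growth of MDA-MB-468 alone for every sample.

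Sites were deposited as 1 merged list per line, of 5194 sites for MCF-10A and 8320 for MDA-468, together with a table of 1795 sites that the authors found to differ between the lines. The files give no value for a single library, so no value below has a replicate error, the depth behind each site is unknown, and RNA levels were not analysed here. A gene without a site is therefore not shown to lack m5C. Lists of sites do not test the identity of the cells: 2 of 7 epithelial markers had a site (CDH1 in MCF-10A and KRT14 in MDA-468), as did 3 of 7 markers of blood, fibroblast and endothelial cells (PTPRC, COL1A1 and PECAM1).

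RNA m5C is placed by the NSUN family and by TRDMT1, which is also known as DNMT2. NSUN2 methylates tRNAs and is the main enzyme linked to m5C in mRNA, NSUN6 methylates a few tRNAs and some mRNAs, NSUN4 acts on mitochondrial ribosomal RNA, NOP2 on the RNA of the large cytosolic ribosomal subunit, and TRDMT1 on tRNAs. ALYREF, an mRNA export adaptor, and YBX1, a cytoplasmic RNA-binding protein, bind m5C in mRNA. The TET enzymes turn 5-methylcytosine into 5-hydroxymethylcytosine, mainly in DNA and also in RNA.

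Of the 10 genes, 4 had a site in at least 1 list and 6 had none. A site stood in 3 members in MCF-10A (NSUN4, NSUN6 and TRDMT1) and in 3 in MDA-468 (NSUN4, TRDMT1 and TET3), so 2 were in both lists, 1 in the MCF-10A list alone and 1 in the MDA-468 list alone. Of 20056 protein-coding genes, 15.2% were in the MCF-10A list, 22.4% in the MDA-468 list, 12.3% in both, 2.87% in the MCF-10A list alone, 10.1% in the MDA-468 list alone and 25.3% in either. With 10 genes, these counts do not set the members apart from other genes. The members with a site were 3 of 5 writers, neither of the 2 readers, and 1 of 3 TET genes. In total the members had 4 sites over 932 nt in MCF-10A and 6 sites over 1022 nt in MDA-468.

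**Figure D1:**
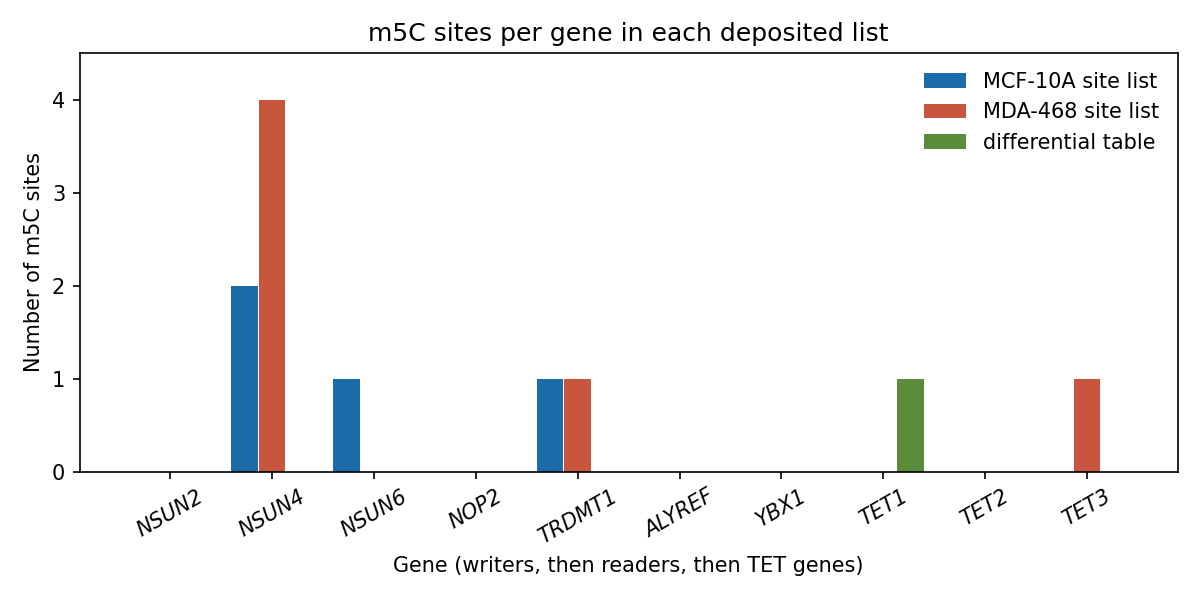
Number of m5C sites per gene (y axis) for the 10 genes (x axis), with a bar for the MCF-10A list, the MDA-468 list and the authors' differential table; a missing bar stands for 0. NSUN4 stands highest, with 2 sites in MCF-10A against 4 in MDA-468, and 5 genes have no bar at all.

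Of the writers, NSUN4 carried the most sites. In MCF-10A it had 2 sites on the plus strand of chromosome 1 (hg19), at 46805849 to 46806118, of 270 nt, and at 46829807 to 46830106, of 300 nt. In MDA-468 it had 4, at 46805849 to 46806058 (210 nt), 46807543 to 46807722 (180 nt), 46808231 to 46808500 (270 nt) and 46829837 to 46829986 (150 nt). The first and the last site of the gene were thus present in both lines, and the pair between them in MDA-468 only. Those 2 sites began 1694 and 2382 nt after the start of the first one, and the nearest MCF-10A site lay 1424 and 2112 nt away. The outer sites lay 23958 nt apart, start to start, in MCF-10A.

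The NSUN4 sites differed widely in how firmly they were called. The authors' p-value of the peak was 1e-146 at the first site in MCF-10A, below that of 80.0% of the sites in that list, and 7.9e-32 at the last site, below that of 32.4%. In MDA-468 it was 6.3e-29 at the first site, 5e-11 and 1.3e-26 at the 2 sites between, and 8.1e-08 at the last. These were below the p-values of 87.2%, 38.3%, 84.4% and 12.1% of the MDA-468 sites, so 1 of the sites found in MDA-468 only was among the firmer calls of its list. The p-values depend on depth and are compared only within a list.

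No NSUN4 site of either list overlapped a site of the authors' differential table. The 2 sites called in MDA-468 only were thus not among those the authors found to differ, and no test of them was made here. Having 4 or more sites was uncommon in MDA-468, where 223 genes (4.22% of those with a site) did, while 849 genes (22.9%) had 2 or more in MCF-10A. In 20 other genes the counts were also 2 and 4. Ranked by summed site length over both lists, the closest of these to NSUN4 (1380 nt) were the noncoding gene LINC00957 (1382 nt), THEM4 (1348 nt), a thioesterase gene, and WDR97 (1320 nt); this likeness rests on counts in 2 lines.

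TRDMT1 had 1 site per line, on the minus strand of chromosome 10. It ran from 17187079 to 17187349 in MCF-10A (271 nt, the authors' p-value 1.3e-79) and from 17187139 to 17187289 in MDA-468 (151 nt, 5e-15). These p-values were below those of 63.4% of the MCF-10A sites and 57.9% of the MDA-468 sites, in the middle of both lists.

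The 3 shared positions had the same form. At each of them the MDA-468 site lay wholly within the MCF-10A site, which was longer by 60 nt at the first NSUN4 site, by 150 nt at the last and by 120 nt in TRDMT1. The first NSUN4 site started at the same base in both lines and ended 60 nt earlier in MDA-468, whereas the TRDMT1 site was shorter by 60 nt at either end. This form was general: of 3539 pairs of sites that overlapped one to one in the whole lists, the MDA-468 site lay wholly inside in 84.1%, and the median excess of the MCF-10A site was 60 nt (quartiles 30 and 119). The 3 positions also ranked alike by p-value within each list, with the first NSUN4 site lowest, TRDMT1 next and the last NSUN4 site highest.

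**Figure D2:**
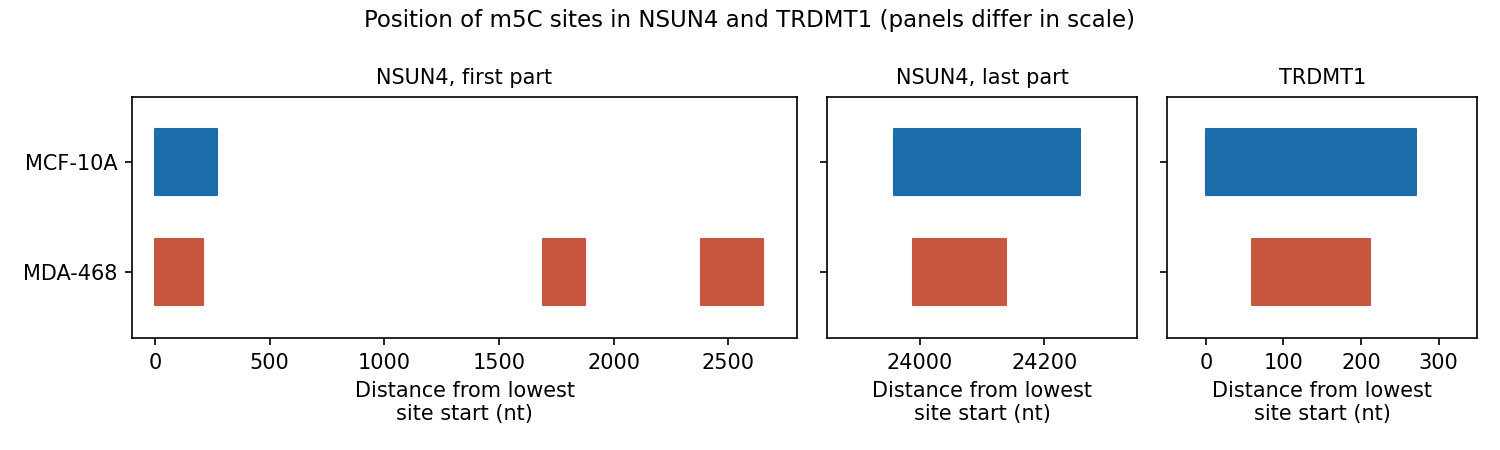
Sites of NSUN4 (first and middle panel) and TRDMT1 (last panel) drawn to scale within a panel, as distance in nt along the chromosome from the lowest site start of the gene, with MCF-10A above and MDA-468 below. The first and last NSUN4 sites and the TRDMT1 site of MDA-468 lie within longer MCF-10A sites, and the NSUN4 sites starting at 1694 and 2382 nt have no MCF-10A counterpart.

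NSUN6 had a site in MCF-10A only, on the minus strand of chromosome 10 at 18834533 to 18834623. It was short, 91 nt, with 4.99% of the sites of its list shorter. Its p-value of the authors was 1.6e-13, and 5.41% of the MCF-10A sites had a larger one. The nearest MDA-468 site on that strand was the one in TRDMT1, 1647243 nt away. NSUN2 and NOP2 had no site in either list and no differential site.

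Sharing of the members' sites was 3 of 4 for MCF-10A and 3 of 6 for MDA-468, where sites were shared if their exon blocks overlapped by at least 1 nt on the same strand. Over all sites, 74.3% of those of MCF-10A and 47.7% of those of MDA-468 were shared. The overlap of the members' sites covered 511 nt, which is 54.8% of their length in MCF-10A and 50.0% of it in MDA-468, against 65.4% and 57.4% over all sites. None of the 10 member sites in the lists overlapped a differential site. Over the whole lists, 29.2% of MCF-10A sites, 34.9% of the shared MCF-10A sites and 22.2% of MDA-468 sites did. With 10 sites, among which 3 positions count once per line, this does not set the members apart from other sites.

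The readers ALYREF and YBX1 had no site in either list and none in the differential table. Their longest transcripts in GENCODE release 29 were the shortest among the members, 1088 nt for ALYREF and 1524 nt for YBX1. Over the lists in general, a site in either line was found in 10.6% of 4708 protein-coding genes whose longest transcript was under 2000 nt, in 24.7% of 7219 genes from 2000 to under 4000 nt, in 37.6% of 5792 genes from 4000 to under 8000 nt and in 41.1% of 1445 genes above that. Of the members with a site, the longest transcript was 2201 nt for NSUN6, 4344 nt for NSUN4, 8230 nt for TRDMT1 and 11388 nt for TET3. NSUN2 (3558 nt), NOP2 (3038 nt), TET1 (9288 nt) and TET2 (10166 nt) had no site in the lists, so members with and without a site overlapped in length. Whether transcript length bears on which members had a site was not tested.

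TET3 was the single TET gene with a site in a list. The site lay on the plus strand of chromosome 2 at 74327874 to 74327934, in MDA-468. It was 61 nt long, with 2.82% of the MDA-468 sites shorter, and its p-value of the authors was 3.1e-06, with 1.07% of the sites having a larger one. It thus stood near the end of the MDA-468 list, whose largest p-value was 2e-05. The MCF-10A list ended at a smaller p-value, 3e-08, so the 2 lists had different limits. TET3 had no site among those the authors found to differ, whose log10 false discovery rate of the difference was at most -1.31. Whether the authors' comparison covered the TET3 site is not known, and no test of it was made here. The nearest MCF-10A site on that strand was 49127 nt away, in the noncoding gene BOLA3-DT. TET2 had no site in any file.

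**Figure D3:**
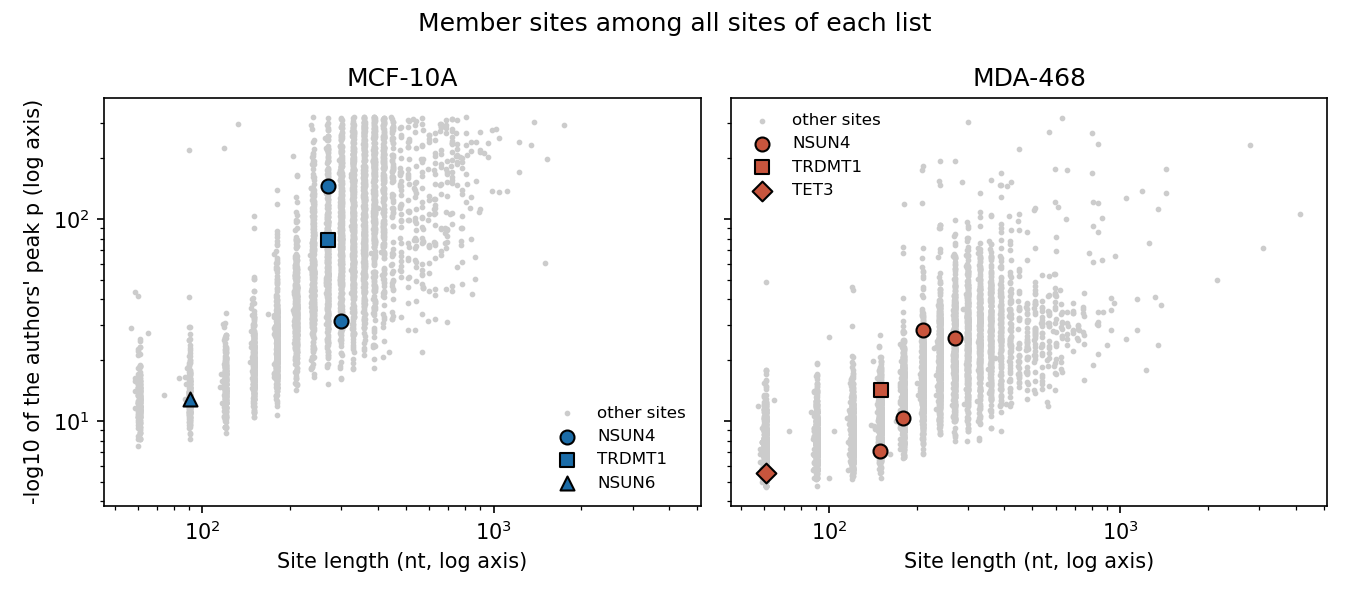
Site length in nt (x axis, log) against -log10 of the authors' peak p-value (y axis, log) for all sites of MCF-10A and MDA-468 in grey, with the members' sites marked; the 225 MCF-10A and 14 MDA-468 sites deposited with a p of 0 cannot be drawn. NSUN6 at 91 nt and TET3 at 61 nt lie at the short end of their lists, and NSUN4 sites spread from 7.09 to 28.2 in MDA-468.

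TET1 was the single member in the authors' deposited table of differential sites. The title line and the name of that table give opposite directions for the comparison, so its sign was read from the site lists. Of 389 positive sites, 381 overlapped the MDA-468 list and 19 that of MCF-10A, while of 1406 negative sites 1334 overlapped the MCF-10A list and 1221 that of MDA-468. Positive log2 fold changes were therefore read as higher in MDA-468, and every direction given from the table rests on this reading. In the authors' deposited table the TET1 site lay on the plus strand of chromosome 10 at 70332040 to 70332280 (241 nt) with a log2 fold change of -7.11, which by this reading is higher in MCF-10A. The TET1 site itself overlapped neither list, so its own direction could not be checked against them. By the authors' deposited table, 5.21% of protein-coding genes held a site higher in MCF-10A and 1.47% held one higher in MDA-468. The median of the 1406 negative values was -1.96 in the authors' deposited table, and by size the TET1 site stood at place 4 among them. Next to it in that order of the authors' deposited table were the pseudogene ANKRD20A9P at -7.33 and the chloride channel gene ANO1 at -6.97.

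Among the sites higher in MCF-10A, the TET1 site was mid-range in false discovery rate and toward the weak end in enrichment and peak p-value. It was also among the shorter ones, with 6.9% of them shorter. In the authors' deposited table, log10 of the false discovery rate of the difference was -2.94, and 40.0% of the sites higher in MCF-10A had a larger one. The authors' deposited table gave the site a 7.20-fold enrichment over input, which was above 12.2% of the sites higher in MCF-10A, whose median was 23.0. The p-value of the peak was 7.6e-10 in the authors' deposited table, and 3.98% of those sites had a larger one.

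The nearest listed sites to that of TET1, on any strand, lay 122066 nt away in DNA2 (MCF-10A) and 188564 nt away in CCAR1 (MDA-468). A lack of overlap was uncommon: in the authors' deposited table, 71 of the 1406 sites higher in MCF-10A (5.05%) overlapped neither list. Of the 2 sites next to TET1 by fold change, that of ANO1 also overlapped neither list and that of ANKRD20A9P overlapped the MCF-10A list. In the authors' deposited table the median log2 fold change of the 71 was -2.69, against -1.96 for all 1406. Those 71 had a median fold enrichment of 1.73 in the authors' deposited table, and 91.5% of them lay below TET1. The rule by which a site entered the lists is not given in the sources used here.

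**Figure D4:**
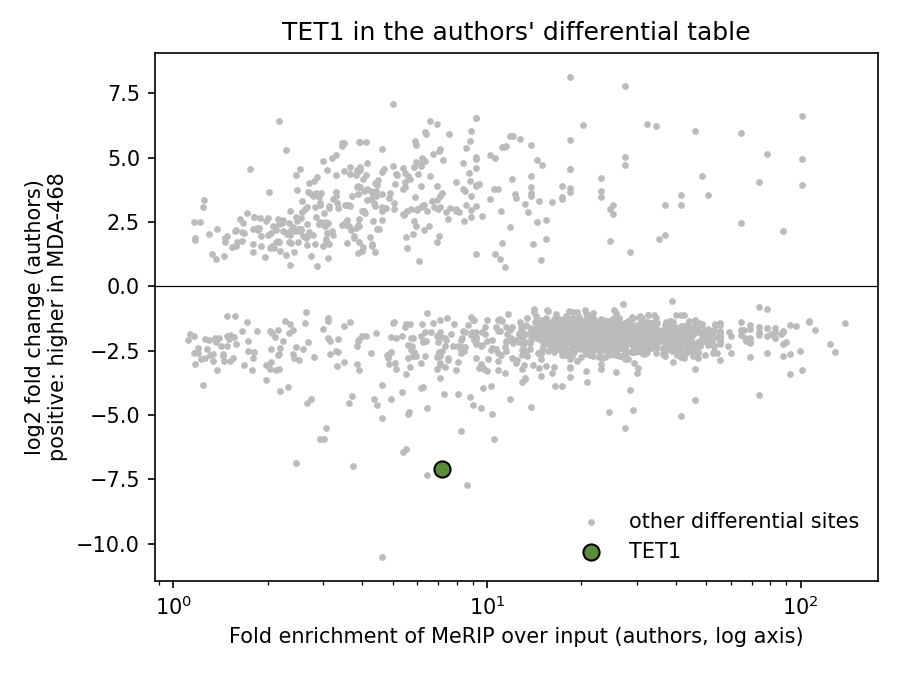
Fold enrichment of MeRIP over input (x axis, log) against the log2 fold change between the lines (y axis; positive values are higher in MDA-468) for the 1795 sites of the authors' deposited table, with TET1 marked. TET1, at 7.20 and -7.11, lies among the lowest fold changes and below most sites higher in MCF-10A in enrichment.

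The 21 other genes counted here as the pathway were not limited to RNA m5C and included the DNA methyltransferase genes DNMT1, DNMT3A and DNMT3B. Of the 21, 4 had a site in a list, DNMT3A and DNMT3B among them. Of these 4, 1 was in both lists and 3 in the MDA-468 list alone. The differential table held 2 of the 21, of which DNMT3A was 1. Over all protein-coding genes the shares were 25.3% in a list, 12.3% in both and 10.1% in the MDA-468 list alone, and 5.21% with a differential site higher in MCF-10A and 1.47% with one higher in MDA-468, so these counts do not set the pathway apart. MTERF4, the partner with which NSUN4 works in assembly of the mitochondrial ribosome, had a site in MDA-468 at 242035294 to 242035563 of chromosome 2 (the authors' p-value 1.6e-28) and none in MCF-10A. The authors' deposited table held a site of MTERF4 there, at 242035294 to 242035533, with a log2 fold change of 2.93, higher in MDA-468. For NSUN4 itself that table held no site.

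The DNA methyltransferase gene DNMT3A had 1 site per line, at different places of chromosome 2. It lay at 25456428 to 25456608 in MCF-10A (1.6e-19) and at 25536862 to 25537012 in MDA-468 (8.1e-08). The authors' deposited table held a DNMT3A site at 25456398 to 25456757, over the MCF-10A one, with a log2 fold change of -2.97, higher in MCF-10A. DNMT3B, the related DNA methyltransferase gene, had a site in MDA-468 only, at 31383146 to 31383296 of chromosome 20 (3.5e-10), and so did LIN28B, known for blocking the maturation of let-7 microRNAs, at 105404953 to 105405133 of chromosome 6 (4e-14).

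No site was found in the other NSUN family genes NSUN3, NSUN5 and NSUN7 or in the DNA methyltransferase gene DNMT1. The genes of the RNA-binding proteins YBX2, YBX3, YTHDF2, SRSF2 and FMR1 and of the DNA repair protein RAD52 had none. The 7 genes linked to oxidation or removal of methylated cytosine or to TET function (ALKBH1, TDG, OGT, CXXC4, CXXC5, IDH1 and IDH2) had none either.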

How the data were processed

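Per the submitters' processing notes, reads were aligned with TopHat and hg19 was the build; per the file headers of the differential table, Tophat2 and exomePeak with UCSC known genes were used. How replicates were merged, and whether the technical replicates entered, is not given in the sources used here. The site lists hold a p-value per site, deposited by the authors. The differential table holds a fold enrichment (a ratio of MeRIP over input), a log2 fold change, a p-value per peak, and log10 values of p and of the false discovery rate (treated as a score), all deposited by the authors.

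Member genes were found by Entrez identifier through a RefSeq table (GRCh38.p14, names only); names matched 3677 of 3704 identifiers in MCF-10A, 5249 of 5280 in MDA-468 and 1523 of 1535 in the differential table. Sites without an identifier (164, 524 and 58) could not be assigned. Exon blocks were compared with bedtools 2.31.1 (at least 1 nt, same strand) in Python 3.11.15 with pandas 2.3.3, numpy 2.4.6 and matplotlib 3.10.9. The comparison was tested on single-block MCF-10A sites shifted by a known length, not on sites of several blocks. Percentages of a list with a larger p or a shorter site count strictly. Coordinates are hg19, counted from 1; whether a site lies in coding or untranslated sequence was not analysed here. Sequences of these genes are not reported here. Depth is unknown, so no interval is given, and with merged lists no test over samples could be made. All members were named; of the other pathway genes, those with a site were described with their values; the 3 genes closest to NSUN4 had equal site counts and the closest summed length. Members and lists were chosen with earlier results of these data known. Alternatives were stricter p-values, lists of equal length, other overlap rules, assignment by position within the span of member sites, and stricter differential limits.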

Additional observations from a re-analysis of the deposited data

How the results depend on the processing

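Of 26 values recomputed under the alternatives, 22 stayed within 1.5 times of the reported count, some unable to change (below), and 4 did not. All 4 came from keeping only sites with the authors' p-value at most 1e-20: members with a site in MDA-468 numbered 1 in place of 3, members with a site in both lists 1 in place of 2, and shared member sites 1 in place of 3 in MCF-10A and 1 in place of 3 in MDA-468. By construction this limit leaves only NSUN4 in MDA-468, and the first NSUN4 site as the one shared position. It also removed the NSUN6 site, so members with a site in MCF-10A numbered 2 in place of 3, a change within 1.5 times. A limit of 1e-10, and likewise the MDA-468 list cut to the 5194 sites of smallest p, removed the TET3 site and the last NSUN4 site of MDA-468, so 2 members kept a site in MDA-468 and 2 member sites were shared from either side. Requiring overlap of 50% of a site and ignoring strand changed no count, but the last NSUN4 site of MCF-10A overlapped by exactly 50.0%. Whole spans changed none and could not: every member site was 1 block, and unshared ones lay at least 1424 nt from the other line's sites. Assigning sites by position within the span of member sites changed none either, but genes without a site in any file were not searched. On the same strand these counts could not change. The nearest site of the other line lay 1647243 nt from that of NSUN6 and 49127 nt from that of TET3, and the nearest listed site to TET1 lay 122066 nt away. Limits on the differential table of log10 false discovery rate at most -2 or absolute log2 fold change at least 2 changed none. The TET1 site already met both limits, with -2.94 and -7.11, so that count could not change. No paired analysis was possible because each list merges the replicates of a line.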
